A study of Homo sapiens with 12 samples.

Results

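The epidermal differentiation complex is a cluster of squamous epithelial genes on chromosome band 1q21. It was taken here as every ATAC-seq peak with its start and end inside a 1.9 Mb interval (GRCh38) that runs from the start of THEM4 to just beyond SLC27A3, in any of 12 deposited peak lists, with peaks that shared at least 1 bp merged over the lists. This gave 1499 merged regions of 2361798 in the whole series, the first beginning at base 151900441.0 and the last ending at base 153798368.0 of chromosome 1. The interval also holds the starts of 70 protein-coding genes of the RefSeq annotation. They comprise 16 S100 genes, 7 fused S100 genes, 19 late cornified envelope genes, 12 small proline-rich genes with involucrin, 9 other envelope or skin genes and 7 neighbouring genes.

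The study applied ATAC-seq, in which a transposase cuts and tags accessible DNA, to 2 established human oesophageal squamous cell carcinoma lines, KYSE150 and KYSE510. Each line was grown in RPMI-1640 with fetal bovine serum and had 3 control libraries and 3 libraries labelled as silenced for HCP5, a long noncoding RNA gene of the MHC class I region. The labels say neither how HCP5 was silenced nor whether clones were used, and ATAC-seq does not measure RNA, so the silencing itself was not checked here. Nothing says that the 3 libraries of a group came from separate cultures, so every p-value measures only the spread between these libraries, which may be technical.

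As background, the genes of the complex encode the structural and calcium-binding proteins that stratified squamous epithelium makes as its cells leave the basal layer. Involucrin, loricrin, the small proline-rich proteins and the late cornified envelope proteins are cross-linked by transglutaminases beneath the plasma membrane, and filaggrin bundles keratin filaments. In the oesophagus, small proline-rich proteins and cornulin belong to the differentiated upper layers. Factors of the AP-1 and grainyhead-like families are known regulators of genes in this interval.

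Promoters of some genes named below are given first, as the 250 bases before the RefSeq start of each gene (GRCh38.p14, read 5′ to 3′ on the gene's strand). They are not the full set of open starts. S100A13, S100A16, LCE1E and INTS3, for example, were open in every library and are not printed. FLG and S100A2 were open in every library of both lines, SPRR1B in every KYSE510 library, TCHHL1 stood apart between treatments in KYSE510, and THEM4 stood apart between lines. Capitals mark matches, on either strand, to the letters of factor binding motifs. The AP-1 motif was searched as TGANTCA, the site bound by Fos and Jun proteins. The TATA box of core promoters was searched as TATAAA. The GC box, bound by Sp factors, was searched as GGGCGG. The core of the site bound by ETS factors was searched as CCGGAA. Positions count back from the gene start, with -1 the last base before it.
FLG, chr1:152325240-152325489, minus strand: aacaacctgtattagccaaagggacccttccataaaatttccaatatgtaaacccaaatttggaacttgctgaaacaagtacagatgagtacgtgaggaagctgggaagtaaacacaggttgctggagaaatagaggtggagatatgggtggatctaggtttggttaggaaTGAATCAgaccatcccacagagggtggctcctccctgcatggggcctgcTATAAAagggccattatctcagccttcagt
S100A2, chr1:153565845-153566094, minus strand: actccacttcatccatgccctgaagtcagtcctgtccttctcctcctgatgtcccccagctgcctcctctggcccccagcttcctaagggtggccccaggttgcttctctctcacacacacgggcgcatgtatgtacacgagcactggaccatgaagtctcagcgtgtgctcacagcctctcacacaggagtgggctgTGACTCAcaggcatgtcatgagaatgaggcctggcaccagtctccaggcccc
SPRR1B, chr1:153030953-153031202, plus strand: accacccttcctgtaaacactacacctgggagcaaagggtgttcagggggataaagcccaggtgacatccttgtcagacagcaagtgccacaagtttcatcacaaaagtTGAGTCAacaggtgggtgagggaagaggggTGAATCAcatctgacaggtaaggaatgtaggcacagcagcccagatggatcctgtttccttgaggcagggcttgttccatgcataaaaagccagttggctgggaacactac
TCHHL1, chr1:152089065-152089314, minus strand: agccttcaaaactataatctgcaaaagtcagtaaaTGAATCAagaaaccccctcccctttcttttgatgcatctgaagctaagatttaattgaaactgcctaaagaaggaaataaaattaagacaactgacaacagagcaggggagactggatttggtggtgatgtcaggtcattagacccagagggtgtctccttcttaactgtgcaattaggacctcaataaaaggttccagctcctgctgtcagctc
THEM4, chr1:151909512-151909761, minus strand: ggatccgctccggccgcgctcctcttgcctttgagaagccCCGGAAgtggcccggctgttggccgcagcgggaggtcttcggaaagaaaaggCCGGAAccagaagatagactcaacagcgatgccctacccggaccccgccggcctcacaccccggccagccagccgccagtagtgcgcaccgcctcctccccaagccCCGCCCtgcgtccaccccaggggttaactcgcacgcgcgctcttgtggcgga
FLG carried an AP-1 match that began at position -79 and a TATA box match at position -30. SPRR1B carried AP-1 matches at positions -141 and -111, S100A2 at position -52, and TCHHL1 at position -215. THEM4, which is no envelope gene, held instead 2 ETS cores and a GC box. Among all 75 RefSeq promoters of the complex (300 bases, 250 before to 50 after a start), 26.7% held an AP-1 match, against 7.71% of 35116 promoters of all genes. The grainyhead-like motif (AACCNGTT) stood in 9.33% against 1.73%, and the TATA box in 44.0% against 11.5%. GC boxes stood in 24.0% against 45.0%, ETS cores in 5.33% against 17.2% and the CACCC box (GGGNGTGG) in 14.7% against 17.2%. Of 25 promoters of genes of the complex open in all 6 KYSE510 libraries, as defined below, 10 held a GC box and 5 a TATA box, while of 17 promoters of genes open in no library 0 held a GC box and 12 a TATA box. All 10 with a GC box belonged to S100 genes (S100A6, S100A13 and S100A16) or to neighbouring genes. The genes open in no library included 0 S100 and 0 neighbouring genes, so these sets also differ in gene family. AP-1 matches stood in 4 of the 25 and in 5 of the 17. Those 4 are the FLG, S100A2, SPRR1B and TCHHL1 promoters printed above. The printed promoters are therefore richer in AP-1 matches than the open starts as a set, and do not show that open starts hold more of them. These shares are descriptions of letters, and none was tested.

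The late cornified envelope genes LCE3D and LCE3E are shown beside their neighbour LCE3C, because the first pair gave the smallest p-values of the silencing comparison in KYSE510 and LCE3C had no peak there. The last 100 bases before each start follow, with capitals marking the longest run of letters that LCE3D and LCE3E share.
LCE3D, chr1:152580517-152580616, minus strand: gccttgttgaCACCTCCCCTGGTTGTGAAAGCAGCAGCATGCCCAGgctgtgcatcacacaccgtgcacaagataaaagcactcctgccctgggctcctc
LCE3E, chr1:152566781-152566880, minus strand: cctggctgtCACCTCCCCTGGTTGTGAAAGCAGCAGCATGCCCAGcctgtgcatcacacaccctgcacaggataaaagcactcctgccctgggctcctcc
LCE3C, chr1:152600134-152600233, plus strand: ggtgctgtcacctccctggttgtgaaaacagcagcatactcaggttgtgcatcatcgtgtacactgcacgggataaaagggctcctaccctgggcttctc
LCE3D and LCE3E shared a run of 36 bases and were identical at 94 of these 100 positions when shifted by 1 base. LCE3C was identical to each of them at 55 of 100 positions at its best shift, with a longest shared run of 14 bases. Reads from stretches that are the same in both genes cannot be assigned to either with certainty, and the treatment of such reads is not given in the sources used here, so the values of LCE3D and LCE3E are uncertain as separate measurements.

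The lists of the 2 lines were not alike in depth of calling. KYSE150 lists held 546453 to 629921 peaks in all and 390 to 439 in the complex, and 66.7% to 73.9% of the latter were 1 fragment high. KYSE510 lists held 115761 to 135841 peaks, 149 to 176 in the complex, with no peak below a height of 2. Therefore "open" below means a peak with the authors' deposited FDR of at most 0.05. In KYSE150 this threshold still admitted some peaks 2 fragments high. At that threshold the complex held 93 to 120 peaks in KYSE150 and 127 to 152 in KYSE510, of 78240 to 97874 and 95658 to 113443 in all. The local background of a peak was taken as its height plus 1, divided by its fold enrichment, minus 1. The median over these peaks of the complex was 1.38 to 2.29 times that over all peaks at this threshold in KYSE150 libraries. In KYSE510 libraries it was 1.56 to 2.03 times. As a check of the label, the starts of 9 of 11 marker genes of squamous or of any epithelium were open in all 6 KYSE510 libraries and 3 of 11 in all 6 KYSE150 libraries. Those 3 were KRT5 and TRIM29, and EPCAM, which marks epithelia in general and not the squamous type. The reference starts of TP63 and KRT14 were open in at most 1 library of either line. Of 10 marker genes of leukocytes, fibroblasts and hepatocytes, 3 (CD14, COL1A1 and APOA1) were open in all 6 KYSE510 libraries and none in all 6 KYSE150 libraries.

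Most regions of the complex were called in few libraries, as were most regions of the genome. Of the 1499 regions, 952 (63.5%) came from a single library, against 69.3% genome-wide, and 40 (2.67%) were called in all 12, against 1.20% of regions genome-wide. Of those 40, 12 (30%) lay within 1 kb of a gene start, against 28.3% of the 28333 such regions of the genome, so most constant regions of the complex lay away from starts, as elsewhere. A gene was called open when a peak at FDR of at most 0.05 overlapped 1 kb on either side of its start (for CRCT1, LCE1B, SPRR2D and SPRR2E, whose start the promoter table lacks, either gene end). By this measure 10 of the 70 genes (14.3%) were open in all 12 libraries, against 40.3% of 20033 protein-coding genes. All 6 KYSE150 libraries were open at 12 genes (17.1%, against 42.9% of all genes), and all 6 KYSE510 libraries at 20 (28.6%, against 50.3%). At 17 genes (24.3%, against 22.3%) no library had such a peak. Single libraries had 17 to 27 open genes of the complex in KYSE150 and 30 to 35 in KYSE510, and these 2 ranges did not overlap. The same held over all protein-coding genes, with 10424 to 11157 open in KYSE150 libraries (52.0% to 55.7%) and 12044 to 12515 in KYSE510 libraries (60.1% to 62.5%).

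**Figure D1:**
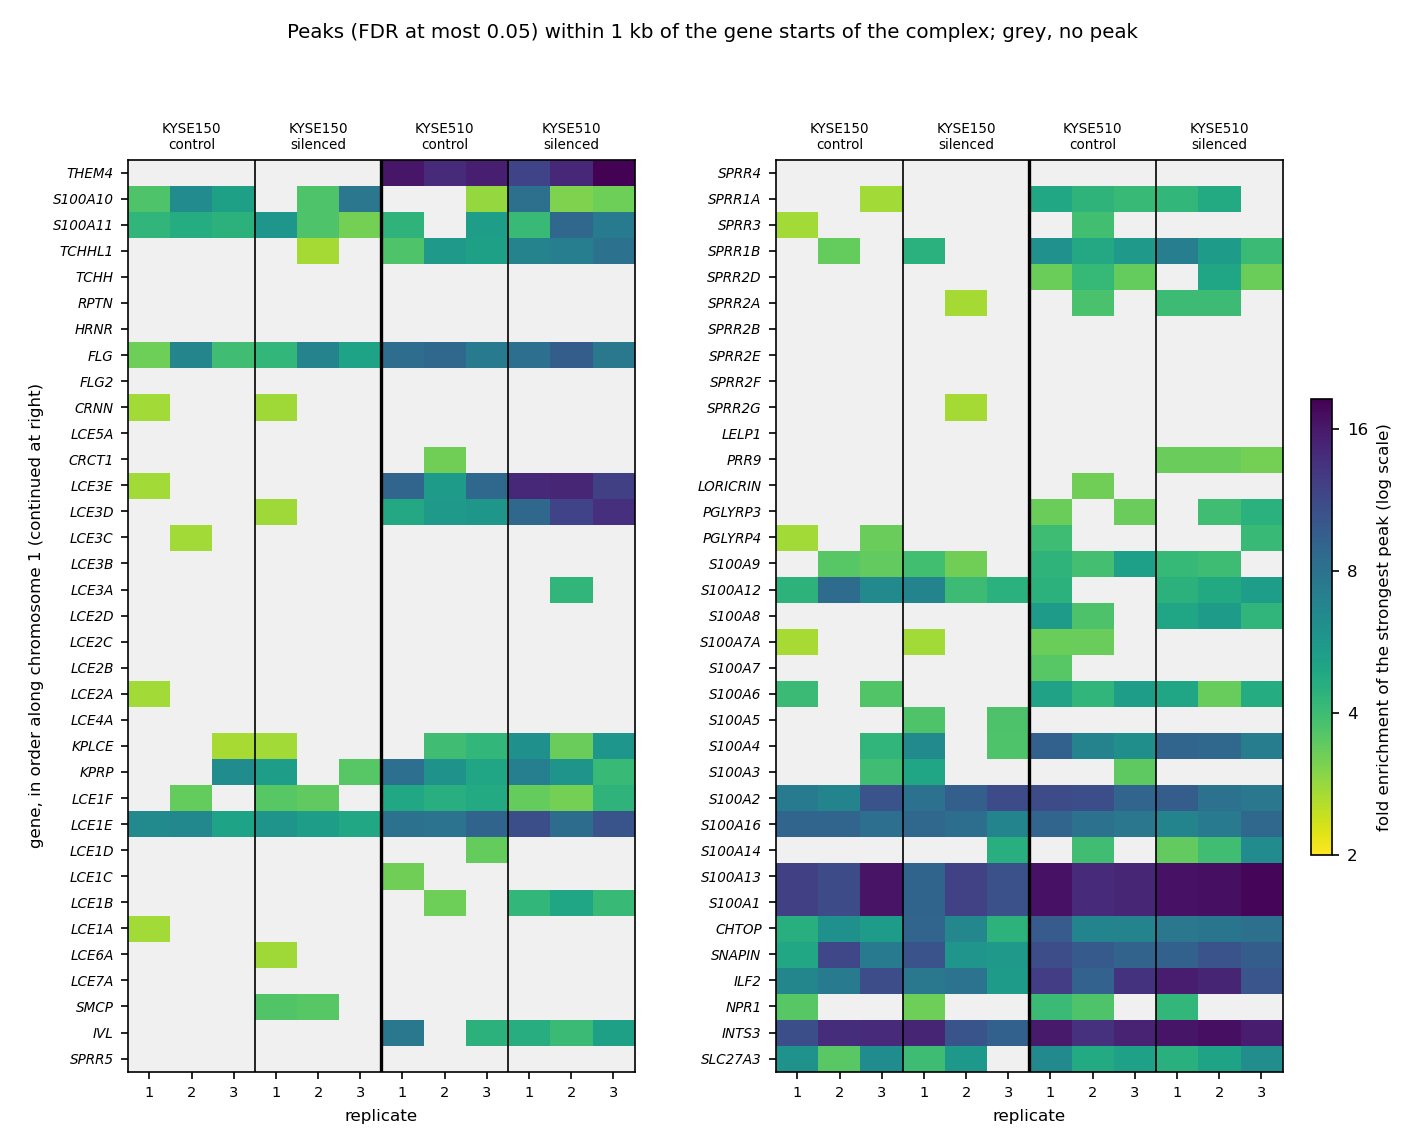
Each row is a gene of the complex in chromosomal order and each column a library, grouped by line and treatment. Colour gives the fold enrichment of the strongest peak at FDR of at most 0.05 within 1 kb of the gene start on a log scale, and grey means no such peak. Rows filled from left to right, such as FLG, LCE1E, S100A2, S100A16 and S100A13, are the 10 genes open in all 12 libraries, while TCHHL1, LCE3E, LCE3D, IVL, SPRR1A, SPRR1B and SPRR2D are filled mainly in KYSE510.

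The S100 genes, which encode small calcium-binding proteins, held 4 of the 10 starts open in all libraries. The neighbouring genes held 4 as well, and FLG and LCE1E were the other two. S100A13, a protein involved in export of growth factors without a signal peptide, and its neighbour S100A1 shared 1 strong peak at chr1:153627073-153627955, so their values are 1 measurement. Its fold enrichment, the authors' ratio of peak signal to local background, was 12.2, 11 and 16.5 in KYSE150 controls and 9.04, 12.1 and 10.7 in silenced KYSE150 libraries. In KYSE510 it was 16.7, 14.1 and 14.6 in controls and 16.7, 16.9 and 17.7 in silenced libraries. It ranked first in the complex, and the fold enrichments of its control and silenced libraries overlapped in KYSE150 and touched in KYSE510. By rank within each library, every silenced KYSE510 library lay above every KYSE510 control, as at 6.18% of the regions tested genome-wide in that line.

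S100A2, an epithelial S100 gene, had fold enrichments of 7.45, 6.79 and 10.5 in KYSE150 controls and 8.04, 9.45 and 11.2 in silenced libraries. In KYSE510 the values were 11.1, 10.9 and 8.95 in controls and 9.62, 7.99 and 7.66 in silenced libraries, so treatments overlapped in each line although the means moved in opposite directions. The interaction of treatment and line at this region was -0.99 ± 0.484 (SE) in normal-score units, explained with the line comparison, with an adjusted p of 0.911 (limma, Benjamini-Hochberg). S100A16 varied less, with its strongest peak between 6.78 and 8.97 in KYSE150 and between 6.77 and 8.98 in KYSE510.

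Other S100 starts were open less uniformly. S100A11, a partner of annexin A1, was open in 6 KYSE150 and 5 KYSE510 libraries, with values of 3.17 to 5.77 and 4.08 to 8.77. S100A12, a ligand of the receptor RAGE, was open in 6 KYSE150 libraries (4.03 to 8.46) and 4 KYSE510 libraries (4.41 to 5.38). S100A10, a partner of annexin A2, was open in 5 and 4 libraries. S100A4 and S100A6 showed the reverse pattern and were open in all 6 KYSE510 libraries. S100A4 had values of 6.13 to 9.26 there and 3.68 to 6.40 in the 3 KYSE150 libraries that had a peak. S100A6 had 3.36 to 5.29 in KYSE510 and a peak in 2 KYSE150 libraries, both controls. The calprotectin genes S100A8 and S100A9 were each open in 5 KYSE510 libraries, at 3.73 to 5.41 and 3.90 to 5.26. In KYSE150 S100A8 was open in 0 of 6 libraries and S100A9 in 4. S100A14 was open in 1 KYSE150 and 4 KYSE510 libraries.

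The fused S100 genes encode large keratin-associated proteins, and only FLG and TCHHL1 were open in all libraries of a line. FLG, the filaggrin gene, had fold enrichments of 3.28, 6.72 and 3.97 in KYSE150 controls and 4.24, 6.85 and 5.08 in silenced KYSE150 libraries. In KYSE510 it had 8.33, 8.73 and 7.38 in controls and 8.20, 9.56 and 7.58 in silenced libraries. Every KYSE510 value of FLG lay above every KYSE150 value, and treatments overlapped in both lines. CRNN, the cornulin gene, was open in 2 KYSE150 libraries at 2.72 and 2.75 and in 0 of 6 KYSE510 libraries. Elsewhere in the complex, KYSE150 control peaks at 2.72 that passed this FDR were 2 fragments high, so the CRNN calls may lie near the floor. TCHH, RPTN, HRNR and FLG2 were open in no library.

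Among the late cornified envelope genes, LCE1E alone was open in all 12 libraries. Its values were 6.45, 6.56 and 5.08 in KYSE150 controls and 5.83, 5.38 and 4.92 in silenced libraries. They were 8.09, 7.94 and 9.03 in KYSE510 controls and 10.8, 8.45 and 10.4 in silenced libraries, again above all KYSE150 values. LCE3E, LCE3D and LCE1F were open in all 6 KYSE510 libraries and in 1, 1 and 3 KYSE150 libraries. LCE1B was open in 4 KYSE510 libraries, at 3.28 to 5.01, and in 0 of 6 KYSE150 libraries. Of the 19 genes, 7 were open in no library.

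The small proline-rich genes and involucrin had 0 to 2 open starts of 12 in single KYSE150 libraries and 3 to 5 in single KYSE510 libraries. SPRR1B had values of 6, 4.84 and 5.56 in KYSE510 controls and 7.14, 5.39 and 4.05 in silenced libraries, and it was open in 2 KYSE150 libraries at 3.38 and 4.48. SPRR1A was open in 5 KYSE510 libraries at 4.10 to 4.93 and in 1 KYSE150 library. IVL, the involucrin gene, was open in 5 KYSE510 libraries at 4.05 to 7.59, with no such peak in KYSE510 control replicate 2, and in 0 of 6 KYSE150 libraries. SPRR2D was open in 5 KYSE510 libraries at 3.29 to 5.01 and in 0 of 6 KYSE150 libraries. SPRR2A was open in 3 KYSE510 libraries and 1 KYSE150 library, SPRR3 in 1 of each line, and SPRR2G in 1 KYSE150 library. Of these 12 genes, 5 (SPRR5, SPRR4, SPRR2B, SPRR2E and SPRR2F) were open in no library, although strong regions lay near them.

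In the other skin genes, KPRP, which encodes a keratinocyte proline-rich protein, was open in all 6 KYSE510 libraries at 4.12 to 8.24 and in 3 KYSE150 libraries at 3.57 to 6.25. KPLCE was open in 5 KYSE510 and 2 KYSE150 libraries. LORICRIN, which encodes the main envelope protein of the epidermis, was open in 1 library, KYSE510 control replicate 2, at 3.23. The neighbours at the interval's edge behaved differently from the envelope genes: INTS3, ILF2, SNAPIN and CHTOP, which act in RNA processing, RNA binding, vesicle fusion and mRNA export, were open in all 12 libraries. INTS3 was the strongest, with values of 9.30 to 14.7 in KYSE150 and 13.5 to 16.9 in KYSE510. SLC27A3, which encodes an acyl-CoA synthetase, was open in 5 and 6 libraries.

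Peaks were densest in the S100 blocks at both ends. At FDR of at most 0.05, the block from S100A6 to S100A1 held 121 peaks per Mb in KYSE150 and 137 in KYSE510 (means of 6 libraries), and the block of S100A10 and S100A11 held 99.6 and 116. The late cornified envelope block held 41.3 and 56.5, the fused S100 block 41.9 and 56.8, and the loricrin block 35.6 and 46.7. The involucrin and small proline-rich block held 45.0 in KYSE150 and 74.4 in KYSE510. All 6 KYSE510 libraries exceeded all 6 KYSE150 libraries in this block and in 3 others of the 8: the fused S100 block, the block from S100A9 to S100A7 and the neighbouring genes. KYSE510 lists were also longer over the genome at this threshold, by the totals given above, and the part of that in these counts was not tested.

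**Figure D2:**
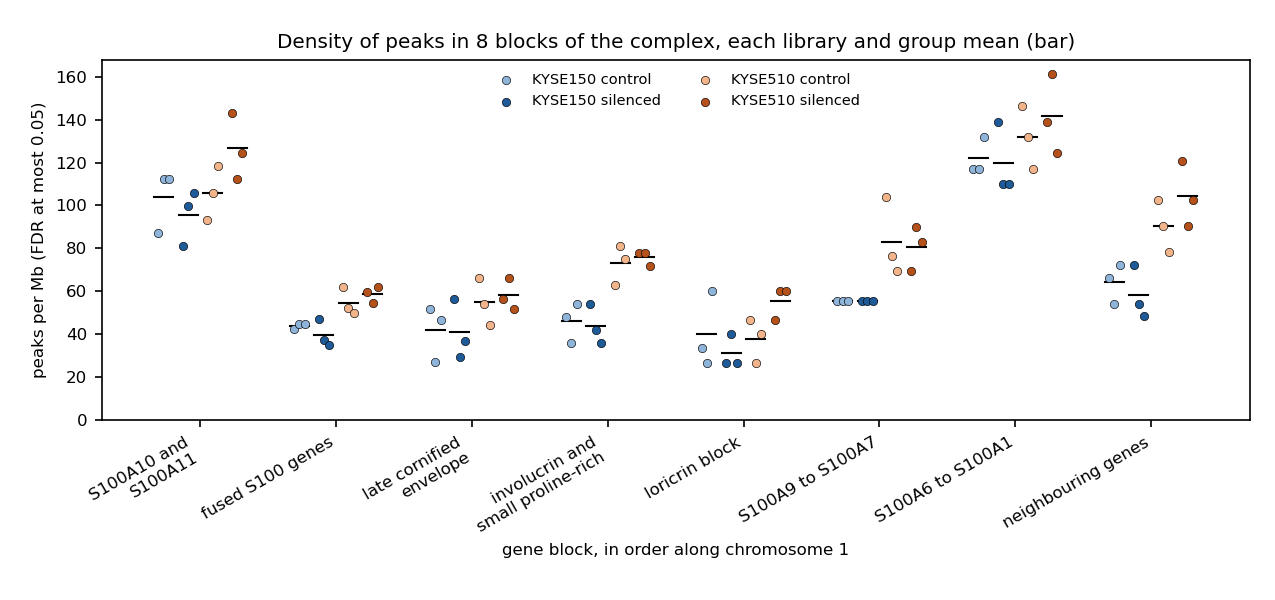
Peaks per Mb at FDR of at most 0.05 in 8 blocks of the complex, in chromosomal order, for each of the 12 libraries (points) with group means (bars). The S100 blocks near both ends are densest, at 99.6 to 137 peaks per Mb, and the involucrin and small proline-rich block is among the 4 blocks that separate KYSE510 (74.4) from KYSE150 (45.0).

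Of the 10 regions with the highest ranks in all 12 libraries, 4 covered the starts of S100A13, INTS3, ILF2 and SNAPIN, and 6 lay away from starts. The most even of the latter was chr1:152047646-152048767, 10.6 kb before S100A11, with fold enrichments of 13.2, 13.2 and 14.2 in KYSE150 controls and 14, 11.4 and 11.1 in KYSE510 controls. Silenced libraries had 11.7, 12.9 and 12.7 there in KYSE150 and 11.6, 10.9 and 11.4 in KYSE510, so all values lay between 10.9 and 14.2. The silenced KYSE150 values all lay below the KYSE150 controls, although their ranks within each library overlapped. By rank, the KYSE150 controls all lay above the KYSE510 controls. A region over the 3′ end of SPRR1B (chr1:153032814-153033497) had 8.09 to 14 over the 12 libraries, with overlap between all groups, and a region 8.54 kb before RPTN, the repetin gene, had 5.47 to 13. The other 3 lay near SPRR2F, SPRR2E and SPRR4 and differed between the lines.

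The comparison of the control lines asked where the complex differed between KYSE510 and KYSE150. Regions called in all 6 control libraries were ranked by fold enrichment within each library, the ranks were turned into normal scores (a scale with mean 0 and SD 1 in each library), and limma compared the lines over all 36552 such regions of the genome. Of 50 regions of the complex, 9 were higher in KYSE510 (against 8.43% genome-wide) and 1 was lower (against 6.44%), at an adjusted p under 0.05. The median difference over the 50 was 0.29, against -0.05 over all regions. All 10 called regions lay outside protein-coding genes, and 5 of the 9 higher ones lay in the involucrin and small proline-rich block, where 8 regions were tested. The lines and their sets of libraries cannot be told apart, and peaks of the complex reached heights of 52 to 79 in KYSE510 controls and 39 to 47 in KYSE150 controls. Only KYSE150 lists hold peaks 1 fragment high, so regions could enter the test at that height on the KYSE150 side alone. At FDR of at most 0.05, 5 of 38 regions were higher in KYSE510 and 0 lower (genome-wide 1724 and 1474 of 28183). At a height of at least 3, 5 of 40 were higher and 0 lower (1376 and 1287 of 27069).

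**Figure D3:**
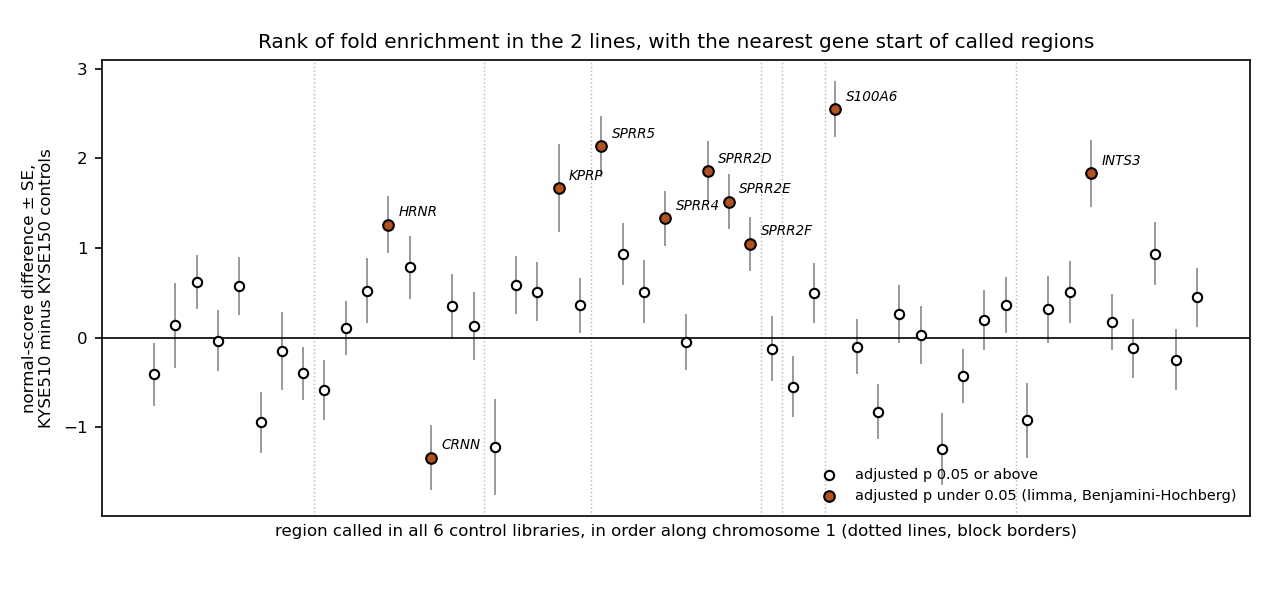
Difference in normal score of fold enrichment (KYSE510 minus KYSE150, control libraries, ± SE) at the 50 regions of the complex called in all 6 control libraries, in chromosomal order, with block borders dotted. Filled points passed an adjusted p of 0.05 and carry the name of the nearest gene start. Of the 10 filled points, 9 lie above 0, and the highest is the region near S100A6 at 2.55.

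The largest difference lay at chr1:153515554-153516387, 19.6 kb from the S100A6 start, between the S100A7 and S100A6 genes. Fold enrichments there were 2.99, 4.76 and 3.45 in KYSE150 controls and 15.9, 14.5 and 16.5 in KYSE510 controls, a ratio of means of 4.19. The score difference was 2.55 ± 0.316 (SE), adjusted p = 0.000578 (limma, Benjamini-Hochberg). This region, with those near SPRR5, SPRR2D, SPRR2E and INTS3 below, kept its call when any 1 control library was left out.

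Of the called regions, 5 stood among the small proline-rich genes. At chr1:152932309-152932963, 14.2 kb before SPRR5, KYSE150 controls had 1.82, 2.72 and 1.82, peaks of 1 or 2 fragments, and KYSE510 controls 9.76, 11.2 and 7.53. The score difference there was 2.13 ± 0.337 (adjusted p = 0.00178, limma with Benjamini-Hochberg). Silenced libraries gave the same picture, with 1.82, 2.68 and 1.82 in KYSE150 and 10.4, 11 and 8.82 in KYSE510. At chr1:153046443-153046859, 5.32 kb from SPRR2D, controls had 1.82, 1.81 and 3.63 in KYSE150 and 8.57, 8.33 and 9.38 in KYSE510 (difference 1.85 ± 0.344, adjusted p = 0.00423 by limma). At chr1:153100204-153100681, 5.68 kb from SPRR2E, they had 6.78, 9.70 and 8.20 against 18.4, 16 and 16.7 (difference 1.52 ± 0.307, adjusted p = 0.00668 by limma). The last of these was among the strongest regions of the complex in both lines, although no SPRR2E peak was open at the gene itself.

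The region chr1:152967013-152967657, 2.99 kb from SPRR4, had 5.30, 6.72 and 6.56 in KYSE150 controls and 15.2, 13.6 and 11.2 in KYSE510 controls (difference 1.33 ± 0.309, adjusted p = 0.0136 by limma). Without KYSE150 control replicate 1 its adjusted p was 0.0597. At chr1:153122829-153123497, 9.31 kb from SPRR2F, controls had 8.97, 10.5 and 9.88 against 16.3, 15.2 and 17.3 (difference 1.05 ± 0.301, adjusted p = 0.0349 by limma). This call was lost when any 1 of the 6 control libraries was left out (adjusted p 0.0591 to 0.105) and on the log2 scale (0.115). The control values of the lines did not overlap in any of the 5 regions, which were chosen by a difference between these same libraries. That lack of overlap is therefore no further support.

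**Figure D4:**
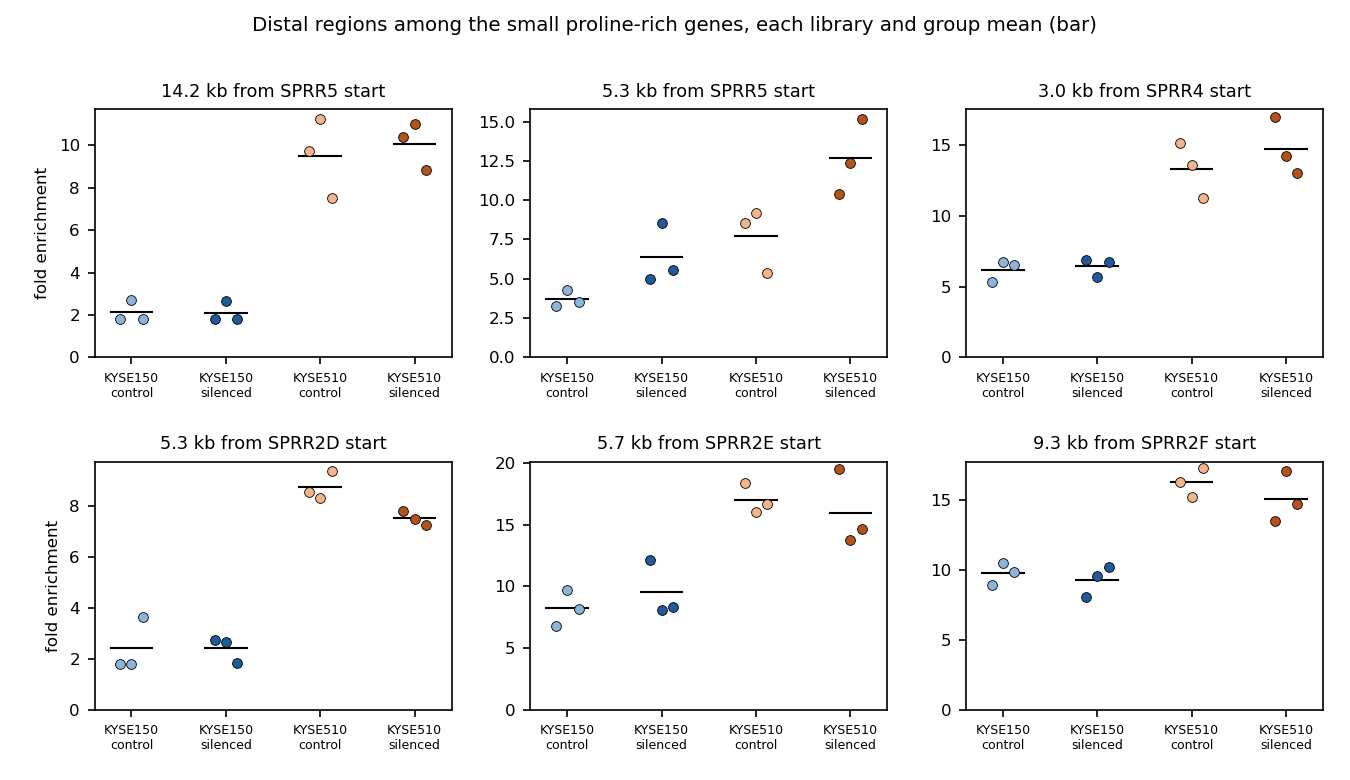
Fold enrichment of 6 regions away from gene starts among the small proline-rich genes in each library (points) with group means (bars), 1 panel per region, named by its distance from the nearest start. In 5 panels both KYSE510 groups lie above both KYSE150 groups, as for SPRR2E with 16 to 18.4 against 6.78 to 9.70 in controls, and in the panel 5.3 kb from SPRR5 the silenced libraries of each line lie above their controls.

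The 4 other called regions lay near INTS3, KPRP, HRNR and CRNN. Near INTS3, at chr1:153708449-153709598, controls had 2.72, 1.81 and 1.82 in KYSE150 and 8.76, 5.73 and 10.7 in KYSE510 (difference 1.83 ± 0.373, adjusted p = 0.00694 by limma). At chr1:152752244-152752824, 5.2 kb before KPRP, they had 1.79, 5.74 and 4.03 against 10.1, 10.2 and 8.22 (difference 1.67 ± 0.494, adjusted p = 0.0396). Near HRNR, at chr1:152228736-152229382, KYSE150 controls had 1.82, 1.79 and 1.82 and KYSE510 controls 5.22, 5.22 and 4.55 (difference 1.26 ± 0.318, adjusted p = 0.0199). The region lower in KYSE510 lay at chr1:152392824-152393592, 20.7 kb from CRNN, with 6.56, 5.26 and 4.46 in KYSE150 and 4.11, 3.85 and 2.94 in KYSE510 (difference -1.34 ± 0.36, adjusted p = 0.0259). The last 3 calls depended on single control libraries. Adjusted p-values by limma without 1 library ran from 0.0274 to 0.134 near KPRP, from 0.0360 to 0.0999 near HRNR and from 0.0412 to 0.117 near CRNN. Losses came without any library but KYSE150 replicate 2 near KPRP, without KYSE150 replicates 2 or 3 or KYSE510 replicate 2 near HRNR, and without KYSE150 replicates 1 or 2 or KYSE510 replicates 2 or 3 near CRNN.

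The silenced libraries gave a second look at the same regions, with other libraries. Of the 10, 6 were called in all 6 silenced libraries and could be tested. Those near S100A6, INTS3, KPRP and CRNN could not. Of the 6, 3 passed: near SPRR5 (2.52 ± 0.345, adjusted p = 0.00086), SPRR4 (1.40 ± 0.329, 0.0134) and SPRR2D (1.40 ± 0.313, 0.0103), all by limma. The regions near SPRR2E (0.928 ± 0.365, adjusted p = 0.106) and SPRR2F (0.804 ± 0.339, 0.129) did not pass by limma. All 6 had the sign seen in the controls, although the difference near HRNR was almost none. Near HRNR the difference was 0.00 ± 0.407 (adjusted p = 1), where silenced KYSE150 libraries had 3.57, 3.57 and 5.26 and silenced KYSE510 libraries 4.05, 8.23 and 5.26.

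Presence in a single line was rare. Of 369 regions of the complex at FDR of at most 0.05, 30 were called in all 12 libraries (8.13%, against 5.52% genome-wide). In addition, 3 were called in all 6 KYSE510 libraries and no KYSE150 library (against 1.7%), and 1 the other way round (against 0.271%). THEM4, a thioesterase gene at the left edge, was the clearest. Its start had fold enrichments of 16.1, 14.2 and 15.3 in KYSE510 controls and 11.9, 14.5 and 18.2 in silenced libraries. In KYSE150 no library had a peak there at FDR of at most 0.05, and 3 had peaks 1 fragment high at 1.80 to 1.82. It was the only gene of the complex open in all 6 KYSE510 and no KYSE150 libraries (against 1.85% of all genes), and 0 genes showed the reverse (against 0.27%).

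The other KYSE510 regions lay 167 bp before the TCHHL1 start and inside TCHH, the trichohyalin gene (chr1:152110811-152112329, 4.29 to 6.94). The KYSE150 region lay at chr1:153617595-153617970, 1.27 kb before S100A14, with 5.11, 4.17 and 4.74 in controls and 4.89, 5.26 and 3.57 in silenced libraries. No KYSE510 library had a peak at that place, although 4 had a peak at the S100A14 start itself.

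As a share of all bases covered by peaks at FDR of at most 0.05, the complex took 0.112% ± 0.0109 (SD, n = 3) in KYSE150 controls and 0.144% ± 0.00168 (SD, n = 3) in KYSE510 controls. The difference of 0.0315 percentage points had p = 0.1 in a two-sided exact permutation test, the smallest that 3 against 3 allow. It was 0.0646 with the lists as deposited and 0.0396 at FDR of at most 1e-05 (both p = 0.1, exact permutation test), and 0.0038 (p = 0.8, exact permutation test) when peaks were kept by a height of at least 3 instead.

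In the number of peaks in the complex, silenced and control libraries overlapped in both lines at every threshold run, except at the strictest one in KYSE510. KYSE150 controls had 408, 413 and 402 peaks as deposited and silenced libraries 390, 439 and 406, a difference of 4 (p = 0.9, two-sided exact permutation test). That difference turned to -6.67 at FDR of at most 0.05 (p = 0.5, exact permutation test). KYSE510 controls had 176, 159 and 149 and silenced libraries 165, 170 and 176, a difference of 9 (p = 0.5, exact permutation test). In KYSE510 the difference was 13.3 at FDR of at most 0.05 and 11.3 at a height of at least 3 (both p = 0.2, exact permutation test). At FDR of at most 1e-05 the KYSE510 controls had 63, 65 and 57 peaks and silenced libraries 70, 69 and 66, which did not overlap, a difference of 6.67 (p = 0.1, exact permutation test, the smallest that 3 against 3 allow). As a share of all peaks of a library at that threshold, the controls had 0.155%, 0.18% and 0.16% and the silenced libraries 0.181%, 0.169% and 0.162%, which overlapped.

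Region by region, limma called 0 of 51 regions of the complex in KYSE150 and 0 of 74 in KYSE510, and 0 regions genome-wide in either line. At an unadjusted p under 0.05, 3 of the 51 were higher (against 2.65% genome-wide) and 0 lower (2.74%) after silencing in KYSE150. In KYSE510, 6 of the 74 were higher (3.95%) and 3 lower (3.35%). Every silenced library ranked above every control library at 7 of the 51 regions in KYSE150 (6.4% genome-wide) and below at 1 (4.97%). In KYSE510 the counts were 9 above (6.18%) and 4 below (6.32%) of 74. The 9 include the regions at LCE3D and LCE3E, which are uncertain as separate measurements. The median difference over the regions of the complex was 0.13 in KYSE150 and 0.01 in KYSE510, against 0.00 and -0.02 over all regions tested.

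The smallest p-values in KYSE510 belonged to the LCE3 pair. LCE3D had fold enrichments of 4.84, 5.56 and 5.71 in controls and 8.78, 11.8 and 13.6 in silenced libraries, which did not overlap. The means were 5.37 ± 0.466 and 11.4 ± 2.45 (SD, n = 3), a ratio of 2.13. Its score difference was 1.59 ± 0.369 (SE), adjusted p = 0.490 (limma, Benjamini-Hochberg). LCE3E had 8.96, 5.47 and 8.70 in controls and 14.3, 14.6 and 12.2 in silenced libraries, again without overlap, with means of 7.71 ± 1.94 and 13.7 ± 1.32 (SD, n = 3). Its score difference was 1.33 ± 0.367, adjusted p = 0.527 (limma). In KYSE150 each of the 2 genes had a peak at FDR of at most 0.05 in 1 library only, so no comparison was possible there.

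Of the 20 genes open in all 6 KYSE510 libraries, 3 had every silenced fold enrichment above every control (against 3.27% of such genes genome-wide) and 1 had every silenced value below (6.65%). The 3 include LCE3D and LCE3E, whose near-identical starts make them uncertain as separate measurements, so this count may be too high. The third higher gene was TCHHL1, a relative of trichohyalin, with 3.68, 5.56 and 5.22 in controls and 6.85, 7.14 and 8 in silenced libraries, a ratio of means of 1.52. The lower gene was LCE1F, with 4.93, 4.55 and 4.76 in controls and 3.39, 3.17 and 4.35 in silenced libraries, a ratio of 0.766. Thus members of the late cornified envelope family separated in both directions. Of the 12 genes open in all 6 KYSE150 libraries, 0 separated upward (1.64%) and 0 downward (11.2%).

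**Figure D5:**
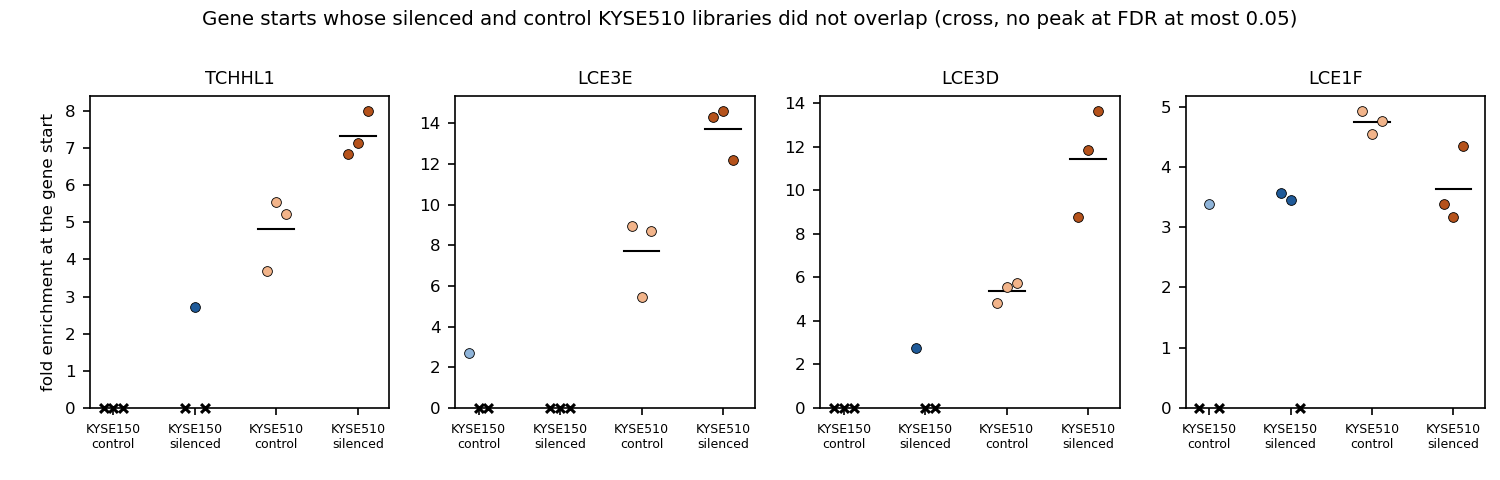
Fold enrichment at 4 gene starts in each library (points; bars, means of groups in which all 3 libraries had a peak; crosses, no peak at FDR of at most 0.05). In KYSE510 the silenced libraries of TCHHL1, LCE3E and LCE3D lie above the controls, as for LCE3D with 8.78 to 13.6 against 4.84 to 5.71, and those of LCE1F lie below, while KYSE150 has few peaks at these starts.

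Other regions with small p-values lay away from starts. In KYSE510 the region chr1:152225742-152226111, 1.55 kb before HRNR, the hornerin gene, had 2.94, 5.22 and 2.99 in controls and 9.33, 5.77 and 5.77 in silenced libraries (difference 1.56 ± 0.498, adjusted p = 0.568 by limma). In KYSE150 the stretch of the HRNR region named above that the KYSE150 lists share, 4.65 kb before the start, had 1.82, 1.79 and 1.82 in controls, each 1 fragment high, and 3.57, 3.57 and 5.26 in silenced libraries, 3 to 5 fragments high. The difference was 1.51 ± 0.348 (adjusted p = 0.925 by limma). At the same region KYSE510 differed by 0.17 ± 0.412, and the interaction of treatment and line was -1.32 ± 0.553 (adjusted p = 0.882 by limma).

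A region 5.25 kb before SPRR5 (chr1:152941034-152941952) was the only region among the 40 called in all 12 libraries whose silenced ranks lay above all control ranks in both lines, a pattern of 0.536% of such regions genome-wide. In KYSE150 the values were 3.28, 4.31 and 3.51 in controls and 5.00, 8.57 and 5.56 in silenced libraries, a ratio of means of 1.72. In KYSE510 they were 8.57, 9.15 and 5.38 in controls and 10.4, 12.3 and 15.2 in silenced libraries, a ratio of 1.64. Score differences were 1.01 ± 0.335 and 1.13 ± 0.404, with adjusted p-values of 0.925 and 0.602 (limma). No region ranked below the controls in both lines (0.367%), and none moved in opposite directions without overlap (0.321% and 0.215%). The interaction test by limma called 0 of the 40 regions (against 0.00353% genome-wide, all with a larger change in KYSE510). At an unadjusted p under 0.05, 0 had a larger change in KYSE510 (2.85%) and 1 a smaller change (2.64%). The LORICRIN region with the next smallest p in KYSE150, chr1:153277885-153278193, 18.2 kb from the start of that gene, had 1.82, 2.72 and 2.72 in controls and 4.39, 3.45 and 3.64 in silenced libraries (difference 0.76 ± 0.310, adjusted p = 0.925 by limma).

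Regions present under 1 treatment and absent under the other were few and low. In KYSE150, 2 of 1449 regions had a peak in every control but in 0 silenced libraries (against 0.294% genome-wide) and 4 showed the reverse (0.248%). Of these 6, 5 were 1 fragment high. Among them, silenced libraries had 1.83, 1.80 and 1.85 both at the LCE3C start and 2135 bp from LCE7A. Controls had 1.82, 1.81 and 1.82 both 9806 bp from THEM4 and 10443 bp from INTS3. The sixth, chr1:152546825-152547535, 19.2 kb from LCE3E, had silenced values of 2.63, 3.51 and 2.73 at heights of 2 to 3. In KYSE510, 1 of 335 regions was called in controls alone (0.304%): chr1:152190610-152191043, 31.4 kb from RPTN, with 6.47, 4.88 and 3.47. The 3 called in silenced libraries alone (0.546%) were a region 13.7 kb before SPRR5 (5.94, 4.13 and 4.41), a region 27.2 kb from HRNR (3.91, 3.28 and 4.48) and the start of PRR9, a proline-rich protein gene (3.33, 3.34 and 3.12 at a height of 3). At the SPRR5 and PRR9 places some KYSE150 controls had peaks of 1 or 2 fragments.

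A further region, chosen after its values were seen, lay 1.90 kb before IVL (chr1:152905944-152906648). In KYSE510 it was strong in controls (7.44, 12.1 and 11.4) and in silenced libraries (9.23, 11.9 and 8.17), which overlapped. In KYSE150 it was weak or missing in controls, with 1.79 and 1.82 at a height of 1 and no peak in replicate 2. Silenced KYSE150 libraries had 2.73, 3.28 and 5.26 there. The IVL start itself, beside it, was open in no KYSE150 library.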

How the data were processed

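Chromatin accessibility was measured by ATAC-seq in 12 libraries (4 groups of 3). The submitters' processing notes name Trimmomatic 0.36, Bowtie2 2.2.6, Picard 2.8.2, MACS2 2.1.1, bedtools 2.25.0 and GRCh38, without roles. Per the file headers, the authors deposited for each peak its position, height (pileup signal), fold enrichment (a ratio), p-value and FDR. Peaks were called per library. The lists hold no read counts, so the depth is unknown and no counting interval is given.

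Overlapping peaks (at least 1 bp) were merged over the libraries, with unplaced contigs left out. Regions called in all libraries of a comparison were ranked by fold enrichment within each library. Normal scores were tested with limma 3.58.1 (R 4.3.3), Benjamini-Hochberg adjusted over the genome. The test was checked on simulated data with planted shifts larger than any difference given here. That check does not show how often differences of the sizes seen would be called. Single values were compared by exact permutation tests (numpy 2.4.6). Gene starts came from RefSeq (GRCh38.p14), where 66 of 70 genes matched the promoter table. No genome sequence was at hand, so sequences of distal regions and exons were not used here.

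Named were genes open in at least 3 libraries of any group, the 10 top regions called in all 12 libraries, up to 10 called per direction between lines, up to 5 regions of 1 line, up to 3 of 1 treatment per side and the 3 smallest p-values per silencing test. PGLYRP3 (2 control and 2 silenced KYSE510 libraries) therefore falls outside. Members, lists and tests were chosen with earlier results of these data known. Alternatives covered thresholds, windows, merging, scaling, left-out libraries and a replicate block.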

Additional observations from a re-analysis of the deposited data

How the results depend on the processing

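Deviations of same-numbered libraries were only weakly correlated (0.00396 to 0.0890, all positive). These values lay below the limit of 0.1 set for pairing, so the main tests did not pair libraries by number. They cannot show whether the numbers mark a shared batch. With a replicate block, limma called 0, 0 and 10 regions for silencing in KYSE150, silencing in KYSE510 and the lines, and 0 interactions. The block gave sign-flip p-values of 0.75, 0.75 and 0.25 (exact, 0.25 being the smallest possible) for the peak numbers, with differences of 4 and 9, and for the covered share, with a difference of 0.0315.

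The silencing difference in peak number in KYSE150 turned from 4 to -6.67 at FDR of at most 0.05, to -3.33 at FDR of at most 1e-05 and to -4.33 at a height of at least 3. It ran from -9.67, without silenced replicate 2, to 14.8 when 1 library was left out. In KYSE510 it went from 9 to 13.3, 6.67 and 11.3 under the same thresholds, and ran from 2.83 to 16.3 when 1 library was left out.

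Between lines, 5 regions passed at FDR of at most 0.05 (of 38 tested) and 5 at a height of at least 3 (of 40), where fewer regions entered. Under both thresholds 0 regions passed as lower in KYSE510. With 1 library left out, 7 to 10 passed. Counts of regions called under 1 treatment alone moved from 6 in KYSE150 to 3, 0 and 3 under FDR of at most 0.05, FDR of at most 1e-05 and a height of at least 3, to 3 when 100 bp were needed to merge, and to 23 with 1 opposing library allowed. In KYSE510 they moved from 4 to 2 at FDR of at most 1e-05 and to 14 with 1 opposing library.

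Genes open in all libraries of 1 line and none of the other numbered 1. They numbered 0 as deposited, 2 at FDR of at most 1e-05, 5 at a height of at least 3, 2 with windows of 500 bp, and 1 to 2 when 1 library was left out. Genes open in all 6 libraries, an alternative added after the data were seen, fell from 12 to 5 in KYSE150 and from 20 to 13 in KYSE510 at FDR of at most 1e-05, and rose to 31 in KYSE510 with windows of 5 kb. Over all genes the shares fell likewise, from 42.9% to 22.6% and from 50.3% to 31.0%, and rose to 63.0% in KYSE510. The cause of these changes was not tested. No silencing call appeared under any alternative run.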
